A study of Mus musculus with 46 samples.

Results

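The nuclear-encoded subunits of the respiratory chain were described in the brains of R6/2 mice, a transgenic model of Huntington's disease. Members were the protein-coding genes whose symbols begin with Ndufa, Ndufb, Ndufc, Ndufs, Ndufv, Sdha, Sdhb, Sdhc, Sdhd, Uqcr, Cox4 to Cox8 or Atp5. Ndufa4l2 and symbols beginning with Ndufaf, Sdhaf or Atp5s were left out, and a mean of at least 1 count per 1e+06 counts (CPM) over all libraries was required. These terms selected 79 of the 43346 genes in the table: 36 of complex I, 4 of complex II, 8 of complex III, 15 of complex IV and 16 of complex V. Of 83 genes that matched by symbol, 4 fell under the minimum, namely Cox7a1 (0.742 CPM), Cox7b2 (0.295 CPM), Cox8b (0.179 CPM) and Cox8c (0.0012 CPM). The lowest members were Cox4i2 (1.38 CPM), Cox6b2 (1.77 CPM) and Cox6a2 (2.37 CPM). All 79 members passed the expression filter of every comparison.

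The respiratory chain sits in the inner mitochondrial membrane. Complexes I and II pass electrons from NADH and succinate to coenzyme Q, complex III passes them to cytochrome c, and complex IV passes them to oxygen. Complexes I, III and IV pump protons, and complex V, the ATP synthase, uses the proton gradient to make ATP. Neurons depend heavily on this supply, and loss of respiratory chain activity in the striatum has long been studied in Huntington's disease. The subunits encoded by mitochondrial DNA are not covered here, because the 37 mitochondrial genes are listed without counts in the table.

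The treated R6/2 mice carried Tg(HDexon1)62Gpb on C57BL6/J, a transgene with exon 1 of human huntingtin, and received CHDI-00340246, an inhibitor of kynurenine 3-monooxygenase, by mouth at 30 mg/kg twice-daily. The vehicle R6/2 mice carried the same transgene and received only the vehicle, hydroxypropyl-beta-cyclodextrin in citrate. WT mice received vehicle, and no WT mouse received the compound. Dosing ran from 4 to 12 weeks of age, and tissue was taken at 12 weeks. Each tissue had 8 treated R6/2, 7 vehicle R6/2 and 8 WT libraries, from 23 animals that each gave 1 striatal and 1 cortical library. Females were 4 in each group, and males were 4, 3 and 4. The R6/2 transgene is expressed throughout the body, and the libraries are of whole tissue, so fewer cells of a type and less RNA per cell cannot be told apart in any value below.

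Striatal libraries totalled 30.4 to 36.0 and cortical ones 31.8 to 37.8, in units of 1e+06 counts. Members held 0.889% to 1.17% of the striatal and 0.858% to 1.09% of the cortical counts. Their median share in striatum was 1.01% in treated R6/2, 0.977% in vehicle R6/2 and 0.933% in WT. In cortex it was 0.972%, 0.939% and 0.902% in the same order. These are shares of unscaled counts, and they were higher in both R6/2 groups than in WT. Markers of striatal projection neurons summed to 602 to 2569 CPM in treated R6/2, 2104 to 2478 CPM in vehicle R6/2 and 5086 to 6931 CPM in WT striatum, and none of the 8 markers was under 0.1 CPM there. In WT cortex they summed to 192 to 328 CPM. A single treated striatal library, replicate 5, held the 602 CPM. A single WT striatal library, replicate 1, stood apart for the members themselves: its mean over the 79 members, on the log2 scale relative to the WT mean, was 0.35, against -0.14 to 0.03 in the other 7 WT libraries. It had the highest value of its group for 74 of the 79 members. Pseudogenes that copy mitochondrial DNA took 8.97% of its counts, against 5.42% to 6.53% in the other WT libraries. The main counts that rest on WT striatal replicate 1 are given with and without it, and some without both libraries.

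Promoter sequence from RefSeq was at hand for 65 of the 79 members. It is shown for 4 genes whose values are described below, Sdha and Atp5g1, which were higher in vehicle R6/2 striatum, and Ndufs3 and Uqcr11, which were lower. Each runs 5′ to 3′ on the gene's strand, which is the minus strand for all 4, from 200 bases before the annotated start to 30 bases after it, on GRCm38.p6. The windows lie at chr13:74350211-74350440 for Sdha, chr11:96075602-96075831 for Atp5g1, chr2:90904692-90904921 for Ndufs3 and chr10:80406792-80407021 for Uqcr11. Capitals mark matches to the motif of NRF1 (GCGCATGC), GABPA (CCGGAAGT), YY1 (CCATNTTG) or ERR (TCAAGGTCA), or to the CCAAT box (CCAAT), on either strand.
Sdha: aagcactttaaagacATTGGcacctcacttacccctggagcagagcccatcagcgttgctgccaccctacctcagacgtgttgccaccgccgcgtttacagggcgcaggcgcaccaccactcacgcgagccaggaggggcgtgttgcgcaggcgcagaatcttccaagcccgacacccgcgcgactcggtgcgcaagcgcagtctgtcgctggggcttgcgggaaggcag
Atp5g1: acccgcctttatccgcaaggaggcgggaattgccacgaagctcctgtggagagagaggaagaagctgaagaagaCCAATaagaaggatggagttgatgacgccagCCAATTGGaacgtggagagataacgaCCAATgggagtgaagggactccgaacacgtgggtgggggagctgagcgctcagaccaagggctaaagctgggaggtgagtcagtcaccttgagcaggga
Ndufs3: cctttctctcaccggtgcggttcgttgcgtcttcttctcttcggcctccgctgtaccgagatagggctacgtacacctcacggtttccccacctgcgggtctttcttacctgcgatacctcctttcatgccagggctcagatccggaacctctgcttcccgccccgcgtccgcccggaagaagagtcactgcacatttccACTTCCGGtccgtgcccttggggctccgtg
Uqcr11: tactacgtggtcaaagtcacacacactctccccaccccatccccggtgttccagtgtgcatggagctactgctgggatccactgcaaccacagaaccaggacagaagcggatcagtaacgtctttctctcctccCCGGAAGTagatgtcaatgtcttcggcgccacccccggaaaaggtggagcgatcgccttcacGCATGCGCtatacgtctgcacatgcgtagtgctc

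The Sdha window held 1 CCAAT box, on the other strand. The Atp5g1 window held 4 CCAAT boxes, 2 of which overlap on opposite strands. The Ndufs3 window held 1 GABPA match at the start site, and the Uqcr11 window held 1 match each for NRF1 and GABPA. Among all matched promoters, searched from 250 bases before to 50 bases after the start, the NRF1 motif was in 10 of 65 members (15.4%) and in 3.05% of 27025 genes. The GABPA motif was in 5 members (7.69%) and in 4.31% of genes, the YY1 motif in 12 (18.5%) and 5.85%, and the ERR motif in 2 (3.08%) and 0.466%. The CCAAT box was in 27 members (41.5%) and in 41.1% of genes. Members with a promoter were also split by their call in vehicle R6/2 striatum. The NRF1 motif was in 2 of 24 called lower, 0 of 3 called higher and 8 of 38 not called. For GABPA these counts were 3, 0 and 2, and for YY1 3, 0 and 9. They were 0, 0 and 2 for ERR and 9, 3 and 15 for the CCAAT box. A link between motif and direction was not tested, and the 4 windows shown do not stand for these groups. These are matches of letters and show no binding.

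In the striatum, subunit genes were more often lower than higher in vehicle R6/2 mice than in WT, by small amounts. Of the 79 members 31 fell and 3 rose (edgeR's quasi-likelihood test, Benjamini-Hochberg adjusted p under 0.05). Over all 17394 genes tested, 24.5% fell, 25.8% rose and 50.2% were called in either direction. The members' median log2 difference was -0.14, beside 0.00 for all genes. Without WT striatal replicate 1 the median was -0.06, with 29 members lower and 5 higher, beside 24.2% and 26.3% of all genes. All 29 were among the 31. The same data averaged by library gave means of -0.13 ± 0.04 in treated R6/2 (SD, n = 8), -0.12 ± 0.10 in vehicle R6/2 (n = 7) and 0 ± 0.15 in WT (n = 8). The zero is the WT mean, which includes replicate 1 at 0.35.

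**Figure D1:**
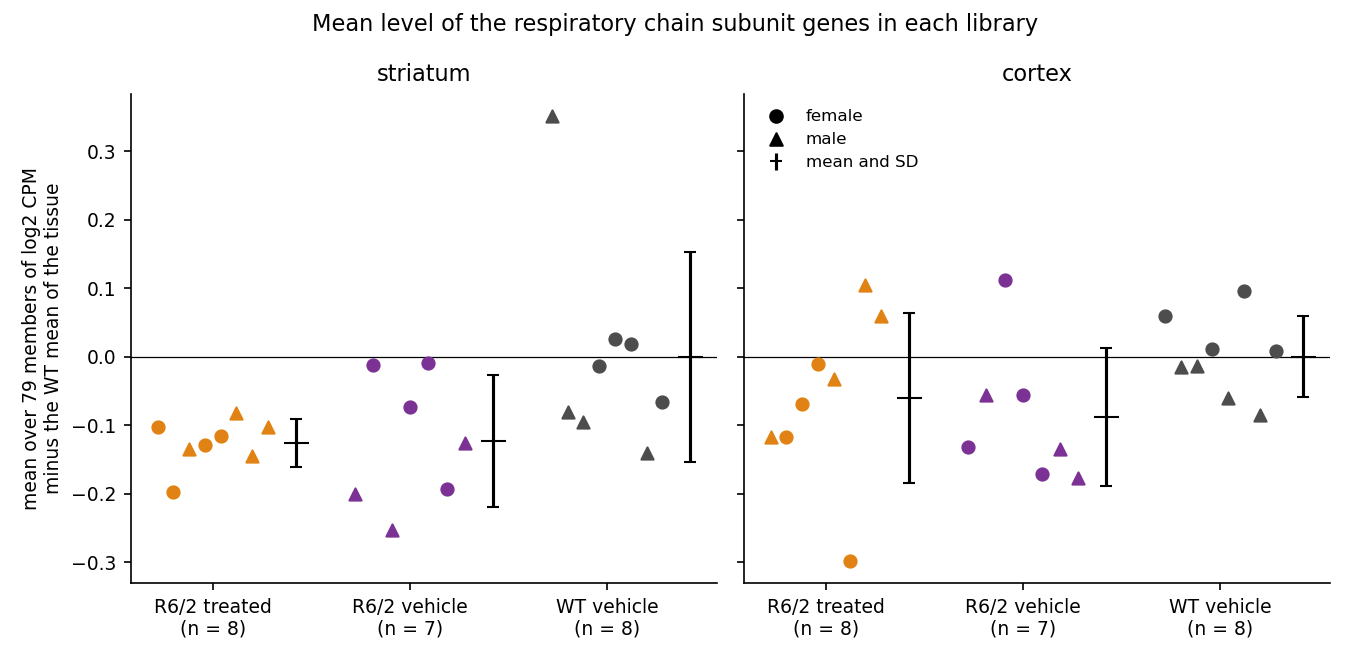
Each point is 1 library, and its height is the mean over the 79 members of log2 CPM minus the WT mean of the tissue; circles are females, triangles males, and the bars give mean and SD of each group. WT striatal replicate 1 lies at 0.35 and the other 22 striatal libraries lie at or below 0.03.

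The direction depends on the scale, in that counts are read relative to the other genes of a library. On the authors' FPKM values (fragments scaled by transcript length and library size), the median of all genes moved to 0.12 in this comparison, and the members' median was -0.01, with 15 members higher and 6 lower by limma on log2(FPKM + 0.1), beside 6888 and 2769 of all genes. With each library centred on its own median the members' median was -0.14 again, with 3 higher and 32 lower, beside 4141 and 4372 of all genes. The 6 members lower on both scales were Cox6a2, Cox4i2, Ndufa5, Ndufb4, Ndufb10 and Ndufs3. All differences below are relative to the bulk of genes in this sense.

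**Figure D2:**
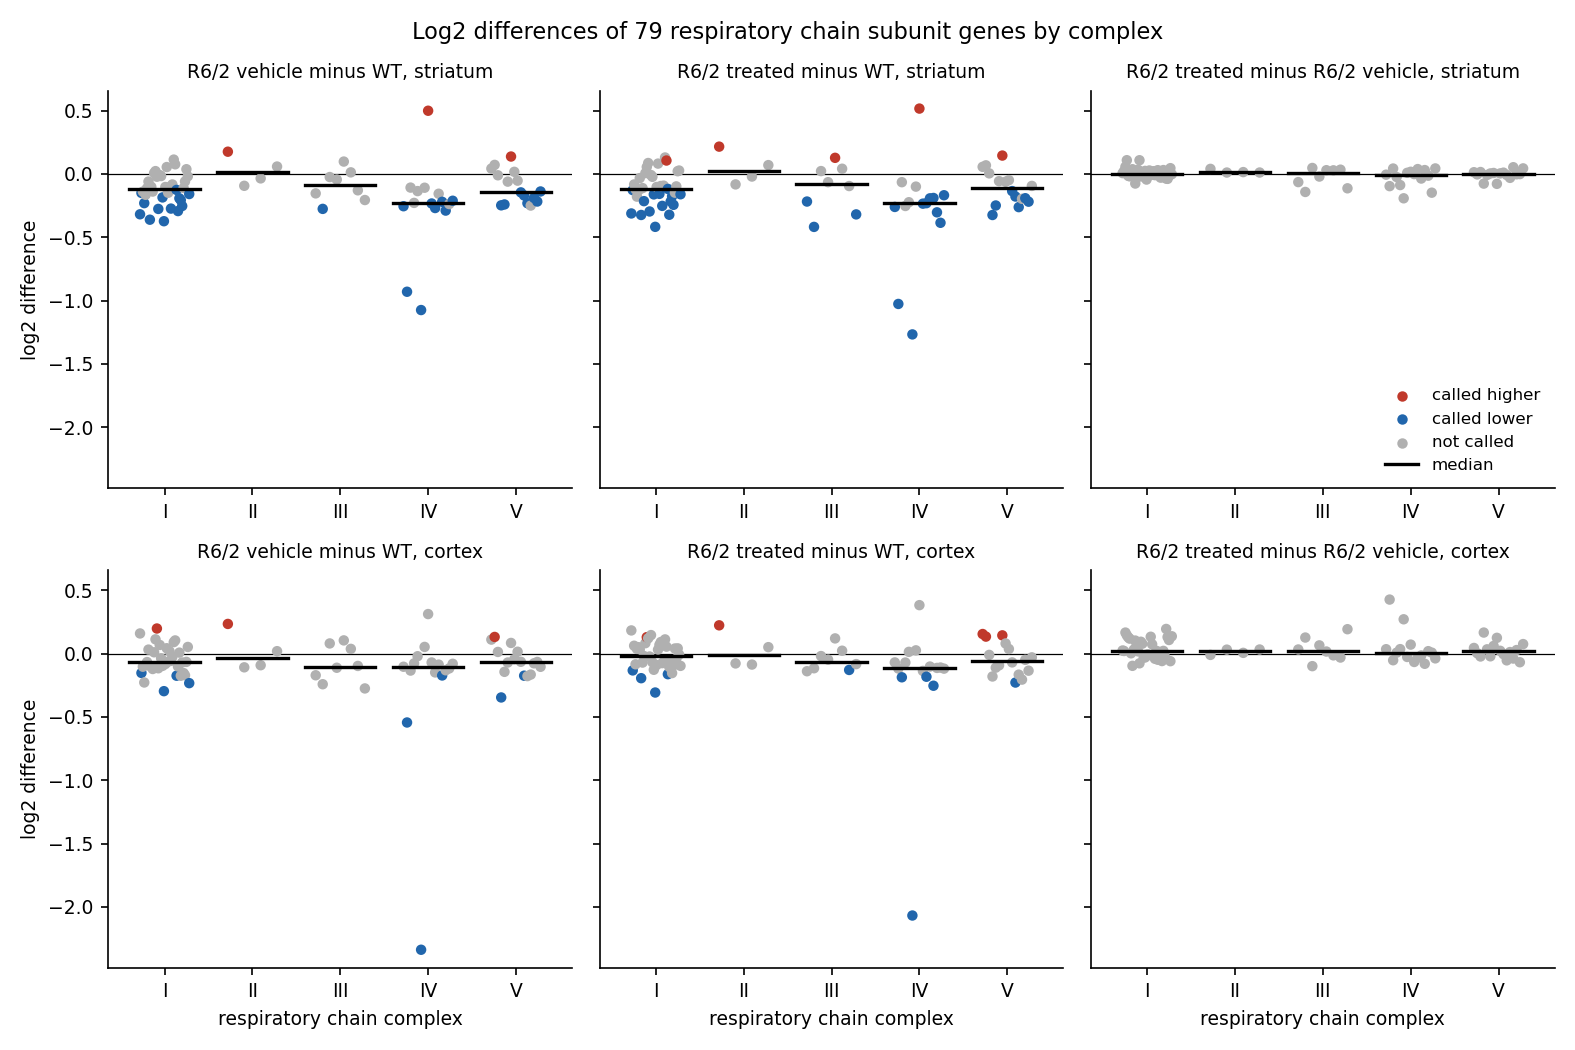
Each point is 1 member, and its height is the log2 difference; columns are the 3 comparisons of groups, rows the striatum above the cortex, and bars mark the median of each complex. Blue points are called lower and red points higher. In the striatum the lower calls lie mainly in complexes I, IV and V on the count scale, with complex medians of -0.12, -0.23 and -0.14 in vehicle R6/2 against WT; on FPKM as deposited the median over all members was -0.01.

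Complex I, the NADH dehydrogenase, had 14 of 36 members lower and none higher in vehicle R6/2 striatum, with a median of -0.12 and the highest member, Ndufc2, at 0.11 (not called). Without WT striatal replicate 1 its median was -0.06, with 13 members lower and 2 higher, Ndufb6 and Ndufc2. These 2 genes are named after their values were seen. Ndufs3, a core subunit of the arm that reduces coenzyme Q, ran from 80.2 to 92.5 CPM (median 87.5) in vehicle R6/2 and from 98.8 to 126 CPM (median 103) in WT. The groups did not overlap, and the log2 difference was -0.29 ± 0.05 (SE; adjusted p = 5.5e-05). Ndufa5, an accessory subunit of the same arm, ran from 42.7 to 56.3 CPM (median 45.9) in vehicle R6/2 and from 53.9 to 79.6 CPM (median 59.9) in WT (-0.36 ± 0.07, adjusted p = 0.000117). Here 6 of 7 vehicle libraries lay below every WT library.

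Lower calls among accessory subunits of the membrane arm included Ndufb4, Ndufb9, Ndufb10 and Ndufa1. Ndufb4 fell by 0.37 ± 0.09 on the log2 scale (adjusted p = 0.00128), with 11.7 to 15.3 CPM in vehicle R6/2 against 15.9 to 25.9 CPM in WT and no overlap; its reads can be shared with the pseudogene Ndufb4c, which makes the level uncertain. Ndufb10 differed by -0.28 ± 0.06, with medians of 81.6 CPM in vehicle R6/2 against 96.9 CPM in WT, and Ndufb9 by -0.27 ± 0.08, with medians of 108 and 128 CPM in the same order. The X-linked Ndufa1 (-0.32 ± 0.09) had medians of 43.6 CPM in vehicle R6/2 against 53.9 CPM in WT, and 4 of 7 vehicle libraries lay below all WT libraries. Outside the membrane arm, Ndufs4, an accessory subunit whose loss causes Leigh syndrome in humans, differed by -0.19 ± 0.05 (adjusted p = 0.00205), and 6 of 7 vehicle libraries lay below all WT libraries. Ndufa12 (-0.23 ± 0.08) and Ndufv3 (-0.16 ± 0.05) fell as well; the Ndufa12 call was lost when a single library was left out (highest adjusted p 0.0551).

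Core subunits that bind NADH and carry its electrons were not called: Ndufv1, which holds the flavin, was at 0.04 ± 0.05, Ndufv2 at -0.02 ± 0.06 and Ndufs1 at 0.08 ± 0.04. The iron-sulfur subunits Ndufs7 (-0.11 ± 0.09) and Ndufs8 (-0.06 ± 0.07) were not called either.

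Complex II, succinate dehydrogenase, which is also an enzyme of the citric acid cycle, had 1 of 4 members higher and none lower. Its median was 0.01, and 0.04 without WT striatal replicate 1, again with 1 member higher. Sdha, the flavoprotein that oxidises succinate, ran from 431 to 519 CPM (median 484) in vehicle R6/2 and from 407 to 434 CPM (median 422) in WT. Of 7 vehicle libraries 6 lay above every WT library, and the log2 difference was 0.18 ± 0.04 (adjusted p = 0.000287). The iron-sulfur subunit Sdhb was at -0.09 ± 0.05 and was not called. Complex III, the cytochrome bc1 complex, had 1 of 8 members lower, the small accessory subunit Uqcr11. It ran from 51.5 to 76.0 CPM (median 64.6) in vehicle R6/2 and from 64.8 to 119.8 CPM (median 73.2) in WT (-0.28 ± 0.10, adjusted p = 0.0278). The groups overlapped, and leaving out a single library could end the call (highest adjusted p 0.0788). The complex III median was -0.09, and -0.04 without WT striatal replicate 1, again with 1 member lower. The core protein Uqcrc1 was at -0.04 ± 0.05 and the Rieske protein Uqcrfs1 at 0.01 ± 0.05, neither called.

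Complex IV, cytochrome c oxidase, had the lowest median of the complexes, -0.23, with 8 of 15 members lower and 1 higher. Without WT striatal replicate 1 its median was -0.15, again with 8 lower and 1 higher. Cox6a2, the isoform of subunit 6a of heart and skeletal muscle, which in mouse brain has been described in parvalbumin interneurons, was the most lowered. It ran from 1.42 to 2.14 CPM (median 1.86) in vehicle R6/2 and from 2.79 to 4.96 CPM (median 3.69) in WT, without overlap (-1.07 ± 0.17, adjusted p = 1.55e-05). Cox4i2, an isoform of subunit 4 induced by low oxygen in some cells, ran from 0.814 to 1.63 CPM (median 1.19) in vehicle R6/2 and from 1.36 to 3.80 CPM (median 2.35) in WT (-0.93 ± 0.18, adjusted p = 0.000164). Of 7 vehicle libraries 5 lay below all WT libraries.

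The common isoforms moved less. Cox4i1 ran from 335 to 384 CPM (median 342) in vehicle R6/2 and from 373 to 585 CPM (median 407) in WT, with 6 of 7 vehicle libraries below all WT libraries (-0.25 ± 0.07, adjusted p = 0.00534). The small subunit Cox7c differed by -0.29 ± 0.08, Cox7b by -0.22 ± 0.07, and Ndufa4, first assigned to complex I and now placed in complex IV, by -0.21 ± 0.07. Cox5a (-0.11 ± 0.08) and Cox8a (-0.24 ± 0.14) were not called. Cox6b2, known as the testis isoform of subunit 6b, was higher, with 2.04 to 3.30 CPM (median 2.30) in vehicle R6/2 against 1.45 to 2.43 CPM (median 1.61) in WT (0.50 ± 0.15, adjusted p = 0.00943), and only 2 of 7 vehicle libraries lay above all WT libraries. The Cox6b2 call was lost among libraries whose name tags both groups shared.

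The rare isoforms made up little of their subunit's RNA on the per-length scale. In the striatum Cox4i1 averaged 489.8 ± 26.8 FPKM in vehicle R6/2 (SD, n = 7) and 536 ± 83.6 FPKM in WT (n = 8), and Cox4i2 averaged 1.78 ± 0.394 FPKM in vehicle R6/2 and 3.11 ± 0.977 FPKM in WT. Cox6a1, the common form of subunit 6a, averaged 325 ± 39.8 FPKM in vehicle R6/2 and 327 ± 82.1 FPKM in WT, and Cox6a2 averaged 2.80 ± 0.470 FPKM in vehicle R6/2 and 5.39 ± 1.13 FPKM in WT.

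Complex V, the ATP synthase, had 8 of 16 members lower and 1 higher, with a median of -0.14. Without WT striatal replicate 1 its median was -0.10, with 7 lower and 1 higher. The catalytic head was not called, with the alpha subunit Atp5a1 at 0.04 ± 0.04 and the beta subunit Atp5b at 0.07 ± 0.05. Of the central stalk, the delta and epsilon subunits fell, and the gamma subunit Atp5c1, named after its value was seen, was at -0.01 ± 0.04 and was not called. Atp5d, the delta subunit, ran from 84.6 to 120.3 CPM (median 96.4) in vehicle R6/2 and from 104 to 164 CPM (median 111) in WT (-0.25 ± 0.09, adjusted p = 0.0202), and Atp5e, the epsilon subunit, differed by -0.24 ± 0.09. Of the membrane and peripheral parts, Atp5j2 differed by -0.23 ± 0.07 and Atp5j by -0.17 ± 0.06. The calls of Atp5d, Atp5e and Atp5j were each lost without some single library (highest adjusted p 0.0582, 0.0698 and 0.0744).

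The 3 genes for subunit c encode the same mature protein of the rotor ring and 1 of them was called. Atp5g1 rose, with 117 to 140.0 CPM (median 129.9) in vehicle R6/2 against 104 to 132 CPM (median 116) in WT (0.14 ± 0.05, adjusted p = 0.0232), though its call too was lost without some single library (highest adjusted p 0.0566). The Atp5g1 call was also lost with the tag in library names as a covariate, and among libraries whose tags both groups shared. Atp5g2 was at 0.02 ± 0.05 and Atp5g3 at -0.05 ± 0.07, and neither was called. Whether the 3 genes differ from each other was not tested. On the per-length scale Atp5g3 was the most abundant of the 3 in vehicle R6/2 striatum, at 265 ± 24.5 FPKM, against 179 ± 19.1 FPKM for Atp5g1 and 108 ± 6.27 FPKM for Atp5g2.

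**Figure D3:**
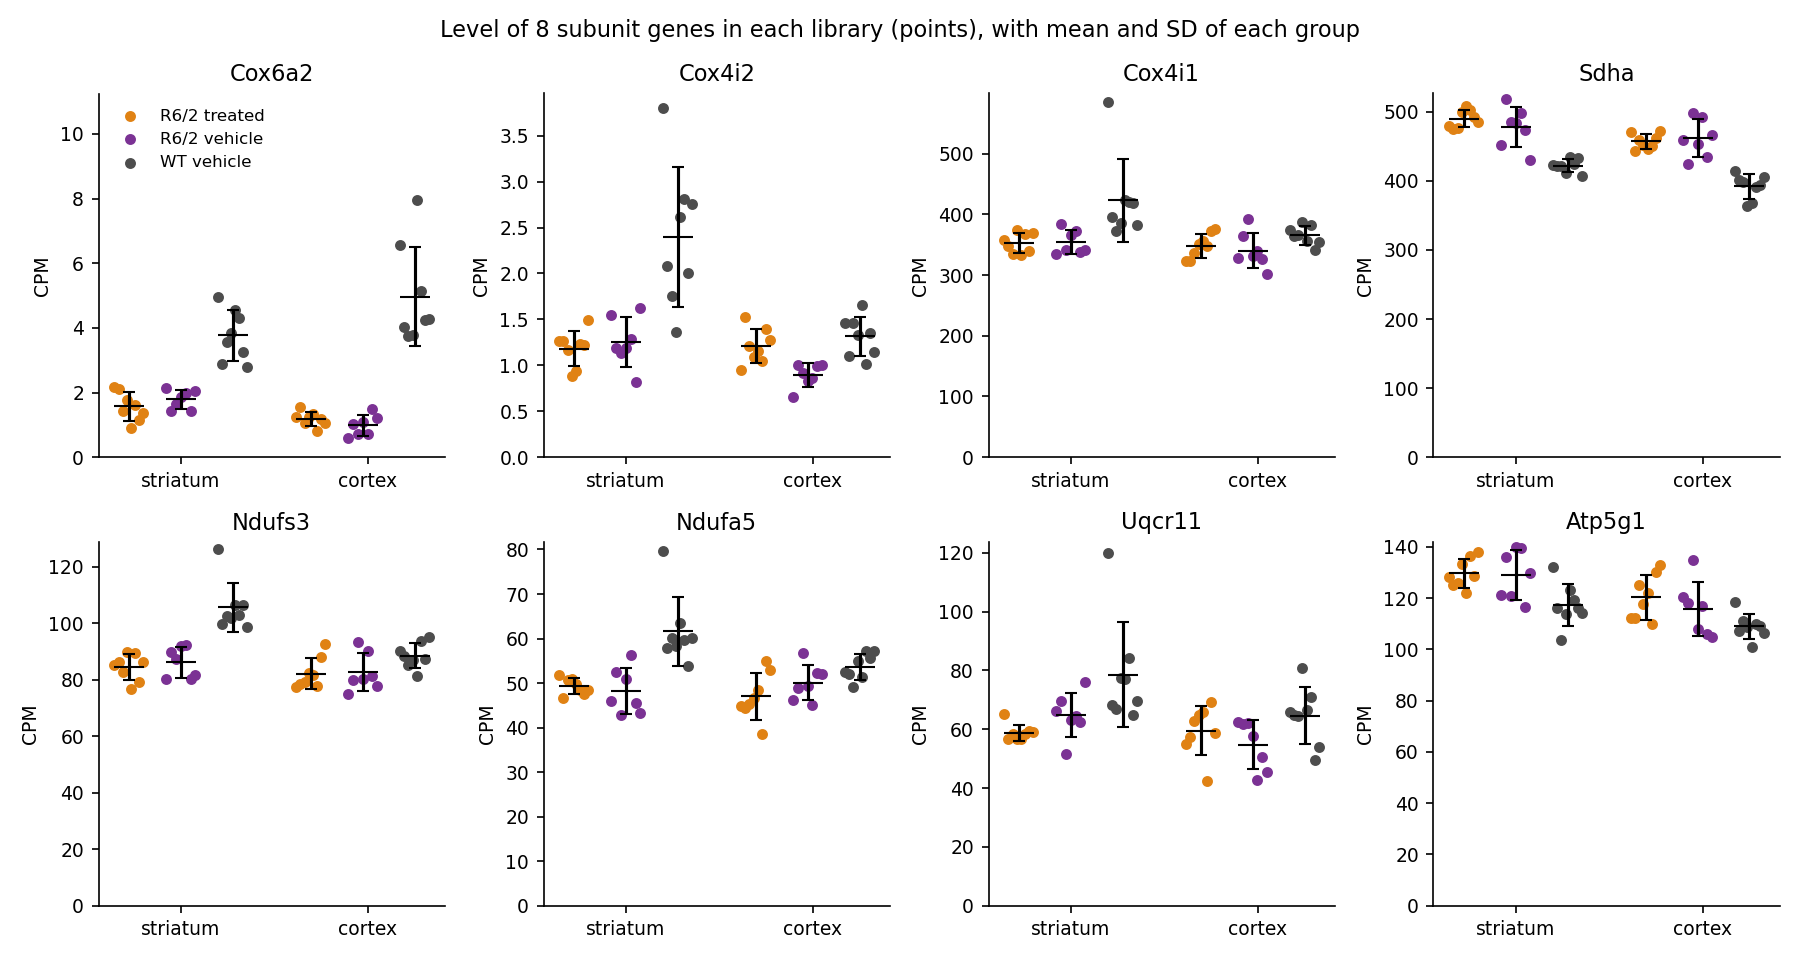
Each point is 1 library, and the height is CPM scaled by the trimmed mean of M-values on a linear axis from 0, with mean and SD of each group in both tissues. Cox6a2 is lower in both R6/2 groups than in WT in both tissues, Sdha is higher, and in the striatum Ndufs3, Ndufa5 and Cox4i1 are lower; treated and vehicle R6/2 points overlap in every panel.

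In the cortex fewer members passed the test. Of 79 members 9 fell and 3 rose in vehicle R6/2 against WT, while 22.6% of all 17484 genes fell, 21.5% rose and 44.1% were called in either direction. The members' median was -0.08, and the complex medians were -0.07 (I), -0.04 (II), -0.11 (III), -0.10 (IV) and -0.07 (V); on FPKM as deposited the members' median was -0.01, with 9 higher and 4 lower, beside 5379 and 2963 of all genes. Library means relative to WT were -0.06 ± 0.12 in treated R6/2 (SD, n = 8), -0.09 ± 0.10 in vehicle R6/2 (n = 7) and 0 ± 0.06 in WT (n = 8). A single vehicle library, replicate 3, had a mean of 0.11 and the highest value of its group for 66 members. Without it 26 members were lower and 2 higher, with a median of -0.12, beside 22.6% of all genes lower and 21% higher.

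Library names carry a tag, and the count varied with it. WT cortical libraries carried tags L7 and L8, which 4 vehicle libraries shared and no treated library did. Within those shared tags 26 members were lower and 2 higher, and with the tag as a covariate 18 were lower and 1 was higher. In the striatum both of these fits gave 26 lower members. Shares over all genes are not given for these fits. What a tag stands for is not stated in the labels.

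Cox6a2 fell further in the cortex than in the striatum. It ran from 0.595 to 1.49 CPM (median 1.03) in vehicle R6/2 and from 3.73 to 7.97 CPM (median 4.27) in WT, without overlap (-2.34 ± 0.20, adjusted p = 2.5e-09). Cox4i2 ran from 0.652 to 1.005 CPM (median 0.916) in vehicle R6/2 and from 1.01 to 1.65 CPM (median 1.34) in WT, again without overlap (-0.54 ± 0.13, adjusted p = 0.00158). Cox7b, the third lower member of complex IV, differed by -0.17 ± 0.07, a call lost without each of 10 single libraries (highest adjusted p 0.0831).

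Markers of most cell types listed were lower in vehicle R6/2 tissue. In the striatum 5 of 6 astrocyte, 4 of 6 oligodendrocyte, 5 of 6 microglia and 5 of 5 blood markers fell. In the cortex 4 of 6 astrocyte, 4 of 6 oligodendrocyte, none of 6 microglia and 5 of 5 blood markers fell. Over all genes tested, 24.5% fell in the striatum and 22.6% in the cortex. Of 7 cortical projection neuron markers 2 fell and 1 rose in the striatum, and 5 fell and 1 rose in the cortex. None of 5 choroid plexus markers was called in either tissue, with medians of 0.26 in the striatum and 0.48 in the cortex. Beside Cox6a2, 6 of 7 genes listed as interneuron markers fell in each tissue. The list holds Gad1 and Gad2, which are not limited to interneurons, so its striatal count and sum do not measure interneurons alone. Pvalb, the calcium-binding protein of parvalbumin interneurons, differed by -1.48 ± 0.23 in the striatum and -1.10 ± 0.16 in the cortex. The summed markers were 1082 to 1405 CPM in vehicle R6/2 and 1295 to 1782 CPM in WT striatum, and 403 to 552 CPM in vehicle R6/2 and 856 to 952 CPM in WT cortex; none was under 0.1 CPM. Beside Cox4i2, markers of endothelial cells and pericytes summed to 258 to 329 CPM in vehicle R6/2 and 339 to 410.2 CPM in WT striatum, where 6 of 6 fell, and to 269 to 359 CPM in vehicle R6/2 and 303 to 400.3 CPM in WT cortex, where none of 6 was called. The part of these cell types in the levels of Cox6a2 and Cox4i2 was not tested. Markers of striatal projection neurons fell in 7 of 8 cases in the striatum, with a median of -1.42, and their part in the members' values was not tested.

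Sdha was higher in the cortex too, with 425 to 498 CPM (median 459) in vehicle R6/2 and 364 to 414 CPM (median 396) in WT. The groups did not overlap (0.23 ± 0.04, adjusted p = 3.38e-05). Sdhb was at -0.11 ± 0.06, not called. Of complex V, Atp5b rose by 0.13 ± 0.05 (adjusted p = 0.0255), and this call was lost without vehicle replicate 3 or WT replicate 4. Atp5d fell by 0.35 ± 0.09 (adjusted p = 0.00323), with medians of 102 CPM in vehicle R6/2 against 121 CPM in WT, and Atp5j by 0.18 ± 0.06, a call lost without some single library (highest adjusted p 0.0610). Atp5a1 was at 0.11 ± 0.05 and was not called.

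In complex I of the cortex, Ndufb4 (-0.30 ± 0.07), Ndufv3 (-0.23 ± 0.07) and Ndufa10 (-0.15 ± 0.05) were among the members that fell. Ndufab1, the mitochondrial acyl carrier protein that is also a complex I subunit, rose, with 50.9 to 64.8 CPM (median 60.5) in vehicle R6/2 against 47.3 to 58.9 CPM (median 52.2) in WT (0.20 ± 0.06, adjusted p = 0.00918), and 6 of 7 vehicle libraries lay above all WT libraries. The Ndufab1 call was lost with the tag as a covariate and on FPKM, both as deposited and with libraries centred. Ndufs3 (-0.10 ± 0.05) and Cox4i1 (-0.10 ± 0.05), both called in the striatum, were not called in the cortex with all libraries. Without vehicle replicate 3 both were called lower. No member of complex III was called in the cortex with all libraries and 3 were called lower without vehicle replicate 3; with all libraries Uqcrq had the lowest value (-0.28) and Uqcr11 was at -0.24 ± 0.11.

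Whether the R6/2 difference itself differed between tissues was tested by interaction within animals. Cox6a2 had a smaller decrease in the striatum, by 1.24 ± 0.19 on the log2 scale (adjusted p = 5.4e-05). Differences were more negative in the striatum for 4 complex I genes, namely Ndufa1 (-0.48 ± 0.11, adjusted p = 0.00234), Ndufa5 (-0.28 ± 0.09), Ndufab1 (-0.24 ± 0.08) and Ndufs3 (-0.22 ± 0.07). That made 1 member more positive and 4 more negative of 79, beside 7.06% and 8.74% of 18122 genes and 15.8% in either direction. Ndufb9 (-0.23 ± 0.08), Ndufs4 (-0.23 ± 0.08) and Ndufb10 (-0.18 ± 0.07) came next and were not called. Without WT striatal replicate 1 the calls of Ndufa5, Ndufab1 and Ndufs3 were lost, and those of Ndufa1 and Cox6a2 held. Striatal and cortical libraries of vehicle R6/2 or WT mice shared no tag, so tag and tissue cannot be told apart.

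In WT mice, 14 members were higher and 5 lower in striatum than in cortex, beside 31.2% of 17051 genes higher, 31.6% lower and 62.8% called in either direction. Cox4i2 ran from 1.27 to 3.55 CPM (median 2.20) in striatum and from 0.993 to 1.61 CPM (median 1.30) in cortex (0.78 ± 0.12, adjusted p = 0.000134). Cox6b2 (0.57 ± 0.15), Ndufb10 (0.46 ± 0.05), Ndufa1 (0.42 ± 0.08) and Atp5g2 (0.30 ± 0.05) followed. Cox6a2 ran from 2.60 to 4.64 CPM (median 3.44) in striatum and from 3.60 to 7.73 CPM (median 4.12) in cortex (-0.43 ± 0.09, adjusted p = 0.00149), and Cox8a (-0.28 ± 0.08), Ndufb4 (-0.22 ± 0.08), Ndufa4 (-0.17 ± 0.07) and Cox7b (-0.16 ± 0.06) were also lower. Without WT striatal replicate 1 the counts were 14 higher and 17 lower, beside 33.5% and 33.3% of all genes.

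No effect of the compound on the members was detected. Neither in striatum nor in cortex was any of the 79 members, or any of all genes tested (0% in each tissue), called between treated and vehicle R6/2 mice by edgeR's quasi-likelihood test. DESeq2 and limma on FPKM made no call among the members either. At an unadjusted p under 0.05 there were 0 members of 464 genes in the striatum and 2 members of 1015 genes in the cortex. The members' median was 0.00 in the striatum and 0.02 in the cortex. A 95% interval of the log2 difference lay wholly within 0.5 of 0 for 78 of 79 members in the striatum and 76 in the cortex. Such an interval lay wholly within 0.25 of 0 for 68 members in the striatum and 61 in the cortex. Values missing the threshold do not show that the groups were alike. In the cortex treated libraries carried tags L5 and L6 and vehicle libraries L5 to L8, so treatment and tag are partly mixed. Vehicle means over the members, relative to WT, were -0.13 in L5 (n = 1) and 0.03 in L6 (n = 2). They were -0.06 in L7 (n = 1) and -0.16 in L8 (n = 3). Treated means were -0.08 in L5 (n = 4) and -0.04 in L6 (n = 4).

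The 8 members with the smallest p in each tissue are given here, and in the cortex treatment and tag are partly mixed. In the cortex Cox4i2 ran from 0.954 to 1.53 CPM (median 1.19) in treated R6/2, 0.652 to 1.005 CPM (median 0.916) in vehicle R6/2 and 1.01 to 1.65 CPM (median 1.34) in WT. Of 8 treated libraries 7 lay above every vehicle library, and the difference from vehicle was 0.43 ± 0.13, with an unadjusted p of 0.0034 and an adjusted p of 0.836. The other 7 in the cortex were Ndufs7 (0.19 ± 0.10), Ndufa11 (0.17 ± 0.07), Atp5d (0.17 ± 0.09), Ndufv3 (0.14 ± 0.07), Ndufs8 (0.13 ± 0.08), Atp5g2 (0.12 ± 0.06) and Ndufv1 (0.11 ± 0.05), all positive. In the striatum Cox6a2 was at -0.19 ± 0.17, with 0.915 to 2.17 CPM (median 1.51) in treated R6/2 and 1.42 to 2.14 CPM (median 1.86) in vehicle R6/2. Uqcr11 (-0.14 ± 0.10), Cox8a (-0.15 ± 0.14), Ndufa12 (0.11 ± 0.08), Ndufab1 (0.11 ± 0.06), Atp5g2 (-0.08 ± 0.05), Ndufa7 (-0.08 ± 0.08) and Sdha (0.04 ± 0.04) completed the set. The difference between treatment effects in striatum and cortex was called for 0 of 79 members and 0% of genes by edgeR's quasi-likelihood test, with 7 members and 1258 genes at an unadjusted p under 0.05.

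Set against WT, treated R6/2 striatum had 35 members lower and 5 higher, beside 25.2% and 27.8% of all genes and 52.9% in either direction; on FPKM as deposited, where all genes had a median of 0.14, the members' median turned from -0.13 to 0.02. This comparison shares its WT libraries with that of vehicle R6/2. Without WT striatal replicate 1 it gave 28 lower and 8 higher, beside 24.9% and 28.2% of all genes. Cox6a2 was at -1.27 ± 0.16, Cox4i2 at -1.03 ± 0.17, Ndufs3 at -0.32 ± 0.05, Uqcr11 at -0.42 ± 0.10 and Sdha at 0.22 ± 0.03, and all 8 treated libraries lay below the WT range for Cox6a2 and Ndufs3 and above it for Sdha. Cox8a (-0.39 ± 0.13) and Ndufa7 (-0.21 ± 0.08) were lower, and Ndufs1 was higher (0.11 ± 0.04). The call of Cox8a was lost with both libraries that stand apart left out, that of Ndufa7 within shared tags and that of Ndufs1 with no expression filter or without treated replicate 6. Treated R6/2 cortex had 10 members lower and 5 higher than WT, beside 23.9% and 22.8% of all genes and 46.7% in either direction; on FPKM as deposited the members' median turned from -0.07 to 0.02. Treated cortical replicate 6 had a mean of -0.30 over the members and the lowest value of its group for 61 of them. Without it the counts were 5 lower and 10 higher, beside 23.7% and 22.8% of all genes. Cox6a2 was at -2.07 ± 0.19 and Sdha at 0.22 ± 0.04, both without overlap, while Cox4i2 was at -0.12 ± 0.12 and was not called. Cox5a fell by 0.19 ± 0.07 and Ndufa5 by 0.19 ± 0.06, and Atp5a1 (0.15 ± 0.05), Atp5b (0.13 ± 0.04) and Atp5g1 (0.14 ± 0.05) rose. All 5 of these calls were lost with the tag as a covariate, that of Cox5a also without each of 7 single libraries (highest adjusted p 0.0722), and that of Atp5g1 without each of 3 (highest adjusted p 0.0627). Treated R6/2 and WT cortical libraries share no tag, so tag and group cannot be told apart between them directly. The fit with the tag separates the 2 only through the 7 vehicle R6/2 libraries, which carried L5 to L8.

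The sexes were compared in vehicle R6/2 against WT. In the striatum 4 members were higher and 4 lower in females, beside 18.2% and 17.4% of genes and 35.6% in either direction, with a median of -0.06. In males none was higher and 29 were lower, beside 16.2% and 16.8% of genes and 32.9% in either direction, with a median of -0.22. The difference between the sexes was tested by interaction and called no member and no gene (0%; 9 members and 773 genes at an unadjusted p under 0.05), and 75 of 79 values were more positive in females. WT striatal replicate 1 is a male. Without it the medians were -0.06 in females and -0.08 in males. Then 6 were higher and 15 lower in females, beside 20.6% and 19.1% of genes. In males 1 was higher and 22 lower, beside 14.9% and 15.3% of genes. The difference between the sexes then had a median of 0.06, was more negative in females for 24 of 79 members and again called none. In the cortex 3 were higher and 9 lower in females (16.6% and 17.4% of genes, 34% in either direction). In males 4 were higher and 5 lower (12% and 15.5%, 27.6% in either direction), with no member called for the difference between the sexes. Without vehicle replicate 3, a female, 2 were higher and 25 lower in females, beside 16% and 16.7% of genes.

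**Figure D4:**
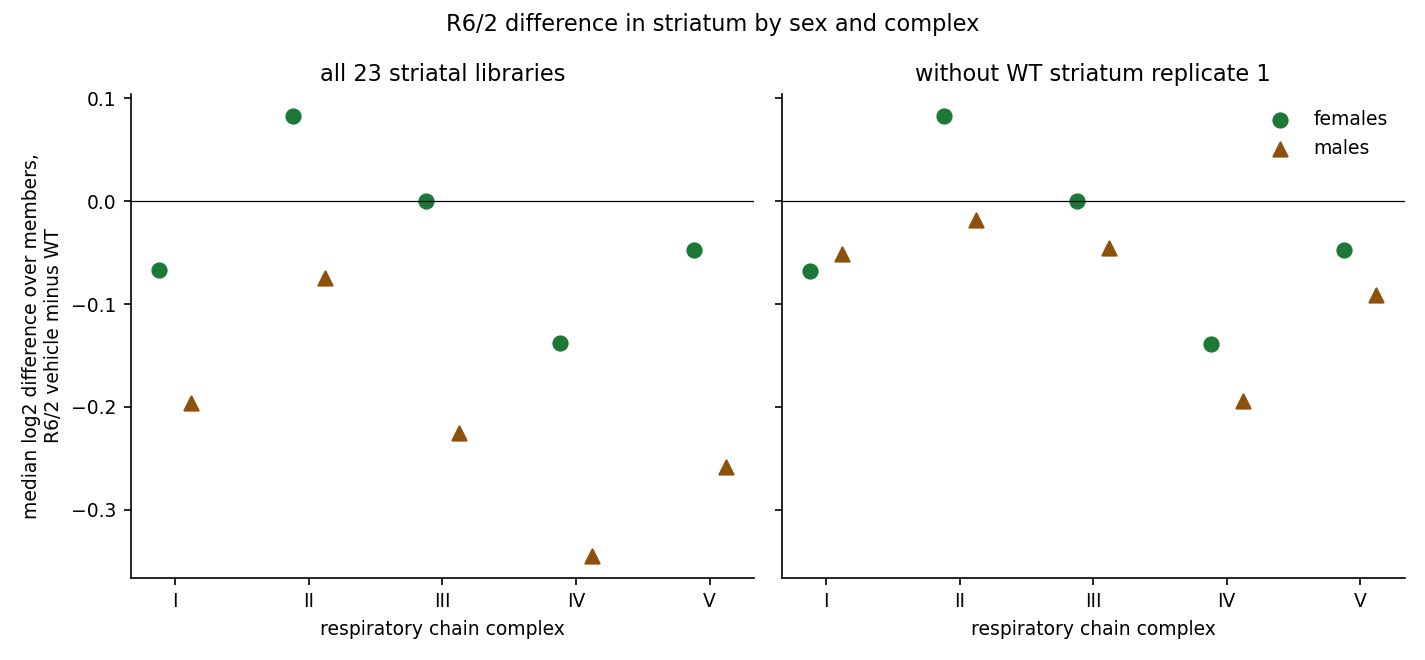
Points give the median log2 difference over the members of each complex, vehicle R6/2 minus WT in striatum, with females as circles and males as triangles; the left panel uses all 23 libraries and the right one leaves out WT striatal replicate 1. The male values lie below the female ones on the left, with medians over all members of -0.06 in females and -0.22 in males. On the right the medians over all members are -0.06 in females and -0.08 in males. There the male values are still lower in complexes II to V, as in II with 0.08 in females and -0.02 in males. In complex I they are higher, with -0.07 in females and -0.05 in males.

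The members are short genes as RNA, with lengths implied by the count and FPKM tables of 362 to 2824 bases. Short transcripts were lower in vehicle R6/2 striatum among other genes as well. For the 76 members of at least 10 CPM, the median difference was -0.21 under 600 bases (n = 23), -0.14 from 600 to 1200 bases (n = 36), -0.04 from 1200 to 2400 bases (n = 13) and 0.06 from 2400 to 4800 bases (n = 4, among them Sdha). The other protein-coding genes of at least 10 CPM had medians of -0.20 (n = 71), -0.04 (n = 686), 0.02 (n = 2692) and 0.05 (n = 4533) in the same classes. In the cortex the members' medians were -0.08, -0.09, -0.07 and 0.11, and those of the other genes -0.13, -0.06, 0.00 and 0.03. Spearman's rho between length and difference across the 76 members was 0.47 in the striatum, 0.36 without WT striatal replicate 1, and 0.17 in the cortex, as descriptions of genes measured in the same libraries. The part of transcript length, or of RNA quality, in the members' decrease was not tested.

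**Figure D5:**
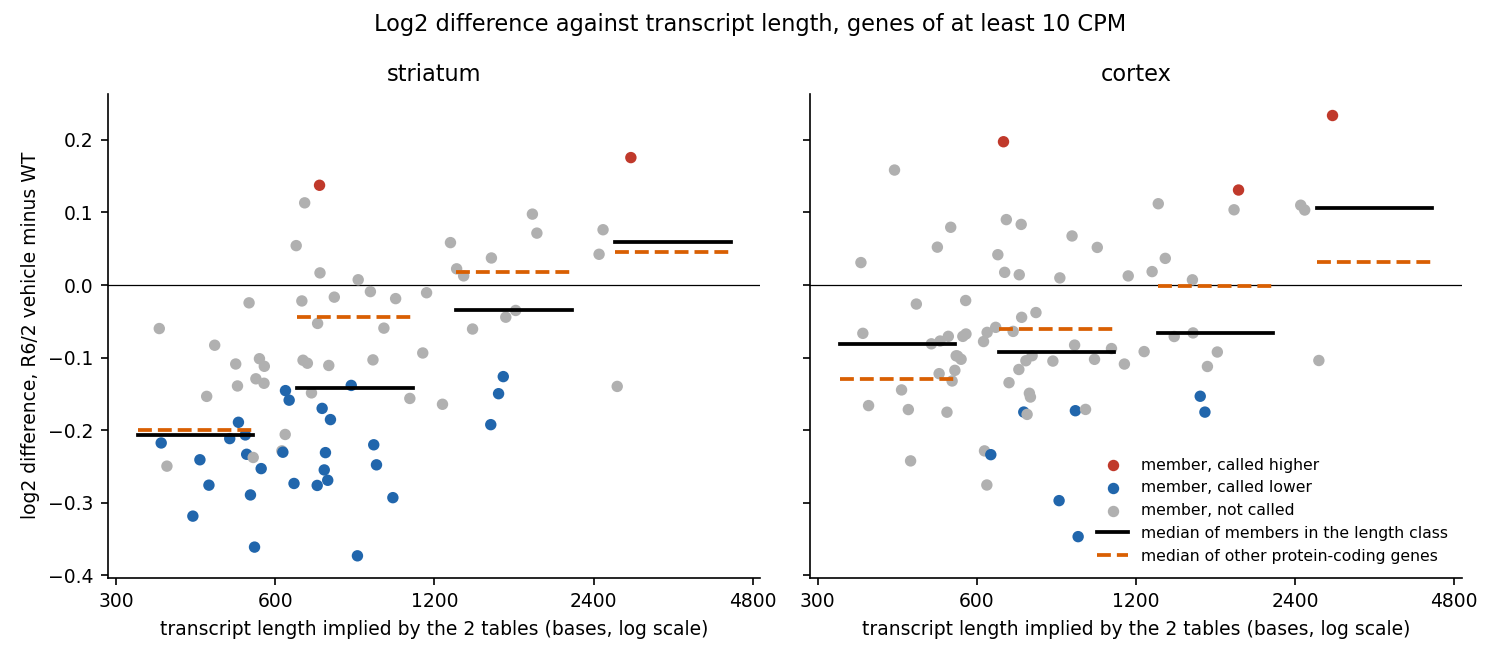
Each point is 1 of the 76 members of at least 10 CPM, with implied transcript length in bases on a log axis and the log2 difference of vehicle R6/2 minus WT; solid bars are medians of members and dashed bars medians of other protein-coding genes in each length class. In the striatum both sets of medians are lowest in the shortest class, at -0.21 for members and -0.20 for other genes.

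The other genes of the pathway, from lists chosen with earlier results in view, moved in both directions. Their counts are to be read against all genes, of which 25.8% rose and 24.5% fell in the striatum and 21.5% rose and 22.6% fell in the cortex. Of 16 complex I assembly factors 6 rose and 1 fell in vehicle R6/2 striatum (median 0.04), led by Ndufaf6 (0.34 ± 0.07), Acad9 (0.23 ± 0.05) and Nubpl (0.23 ± 0.08), which delivers iron-sulfur clusters to complex I; in the cortex 5 rose and none fell (median 0.06), with Ndufaf6 and Ndufaf1 at 0.27. Of 6 complex III assembly factors 3 fell in the striatum (median -0.21) and 2 in the cortex (median -0.12). Lyrm7, which holds the Rieske protein before its insertion, was the most lowered, at -0.81 ± 0.19 in the striatum and -0.96 ± 0.17 in the cortex. Bcs1l, which inserts the Rieske protein, was at -0.23 ± 0.06 in the striatum. Of 20 complex IV assembly factors 5 rose and 1 fell in the striatum, with the copper chaperone Sco2 at 0.42 ± 0.11, Cox16 at 0.38 ± 0.08 and the copper carrier Cox17 at -0.31 ± 0.08; in the cortex 3 rose and 2 fell. Of the 4 complex II assembly factors only Sdhaf3 was called, in the striatum (-0.15 ± 0.04), and none of 5 complex V assembly factors was called in either tissue.

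Against the same shares of all genes, counts in the remaining lists were as follows. Of 18 citric acid cycle genes 4 rose and 4 fell in the striatum and 2 rose and 3 fell in the cortex. Dld, the dihydrolipoamide dehydrogenase of the keto acid complexes, was higher in both, at 0.24 ± 0.04 in the striatum and 0.23 ± 0.05 in the cortex. Among 11 genes of cytochrome c and the carriers, 2 rose and 3 fell in the striatum and 3 rose and 1 fell in the cortex; Etfdh, which passes electrons from fatty acid oxidation to coenzyme Q, was at 0.33 ± 0.04 and 0.34 ± 0.04. Of 13 coenzyme Q genes 3 rose and 1 fell in the striatum, with the methyltransferase Coq3 at 0.42 ± 0.07 and Coq10b at -0.37 ± 0.07, and 2 rose and 5 fell in the cortex, with Coq8b at -0.49 ± 0.08.

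Genes that serve the mitochondrial genome moved in both directions. Of 14 genes of mitochondrial DNA expression 2 rose and 1 fell in the striatum and 3 rose and 2 fell in the cortex, with the topoisomerase Top1mt at -0.45 ± 0.11 and -0.37 ± 0.09 and the single-strand binding protein Ssbp1 at 0.30 ± 0.05 and 0.24 ± 0.06. Of 77 mitochondrial ribosomal protein genes 8 rose and 9 fell in the striatum (median 0.01) and 9 rose and 8 fell in the cortex (median -0.02), beside 50.2% of all genes called in the striatum and 44.1% in the cortex, with Mrpl39 at 0.49 ± 0.04 and 0.35 ± 0.06. The 7 nuclear pseudogenes that copy mitochondrial DNA were all lower in the striatum, with a median of -0.40, and 3 of 7 were lower in the cortex (median -0.17). Their reads can come from mitochondrial transcripts, and the 2 sources cannot be told apart in this table.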

How the data were processed

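RNA-seq of right striatum and cortex was deposited by the authors as a table of estimated counts per gene, with values that need not be whole, and a matching table of FPKM. Among nonzero counts of the members 43.2% were not whole within a tolerance of 1e-06. CASAVA 1.8.2 and the build mm10 are named, per the submitters' processing notes. The sources used here do not state aligner, quantifier, annotation or strand setting. Reads of a gene, its antisense partner and near-identical copies may be shared.

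Estimated counts were rounded to whole numbers, filtered with edgeR's filterByExpr, scaled by the trimmed mean of M-values and tested within each tissue over all 3 groups with sex as a covariate, using edgeR 4.0.16's quasi-likelihood test in R 4.3.3 with Benjamini-Hochberg adjustment over all genes at 0.05. Comparisons between tissues kept the animal as a block. CPM are computed from these counts. The residual degrees of freedom within a tissue were 19. The p-values measure the spread between these animals. Steps were tested on simulated data for vehicle R6/2 against WT in the striatum. There 84.8% of genes changed by 1 on the log2 scale and 29.4% of those changed by 0.25 were recovered. The simulation changed 66 genes by 1 and 68 by 0.25, while 8735 of 17394 genes were called in the data. The adjustment is stricter when fewer genes change, so these shares do not measure the power of the real test.

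Alternatives were other size factors, DESeq2 1.42.0, no filter, limma 3.58.1 on log2(FPKM + 0.1) and log2(FPKM + 1), and no sex covariate. The tag in library names, a replicate block and, within a tissue, leaving out each library were others. Between tissues only libraries that stand apart were left out. Centred FPKM and leaving out the libraries that stand apart were chosen after seeing the data. Transcript length was implied by the ratio of counts to FPKM. Replicates were numbered in accession order; the replicate block used the titles' own numbers, which run within each sex and do not pair samples. The members and lists were chosen with earlier results of these data known. Named were the members of largest called difference by complex and tissue, tissue-limited isoforms, core catalytic members, subunit c genes, and those of smallest p between treated and vehicle R6/2 or for the interaction with tissue, with those of largest difference between WT tissues and those next to 1 CPM; some genes that met these terms are counted but not reported here by name.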

Additional observations from a re-analysis of the deposited data

Results flagged for a closer look

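In 29 of 240 sets of values, each 1 reported member in 1 group of libraries (12.1%), the highest or lowest value lay far from the nearest other one for its group's range, which chance gives in about 1 in 20. WT striatal replicate 1 accounted for 22 of the 29. In complex I it held 79.8 CPM of Ndufa1, 79.6 CPM of Ndufa5, 67.9 CPM of Ndufa7, 25.9 CPM of Ndufb4, 188 CPM of Ndufb9, 126 CPM of Ndufs3, 78.7 CPM of Ndufs4, 81.6 CPM of Ndufs7 and 59.6 CPM of Ndufs8, each the highest of its group, and 149 CPM of Ndufs1, the lowest. In complexes II and III it held the highest values of Sdhb (127 CPM), Uqcr11 (119.8 CPM) and Uqcrfs1 (102 CPM). In complex IV these were Cox4i1 (585 CPM), Cox6b2 (2.43 CPM), Cox7c (191 CPM), Cox8a (385 CPM) and Ndufa4 (207 CPM). In complex V they were Atp5d (164 CPM), Atp5e (95.5 CPM), Atp5g3 (248 CPM) and Atp5j (161 CPM).

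Among treated R6/2 striatal libraries, replicate 1 was highest for Uqcr11 (65.2 CPM) and replicate 6 for Uqcrfs1 (98.5 CPM). Among vehicle R6/2 striatal libraries, replicate 5 was highest for Cox6b2 (3.30 CPM). Among vehicle R6/2 cortical libraries, replicate 1 was lowest for Ndufab1 (50.9 CPM), and replicate 3 was highest for Ndufv1 (161 CPM), Ndufv3 (51.7 CPM) and Ndufa4 (203 CPM).

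The R6/2 difference itself differed between striatum and cortex, by the interaction test, for Cox6a2 (1.24), Ndufa1 (-0.48), Ndufa5 (-0.28), Ndufab1 (-0.24) and Ndufs3 (-0.22), as log2 values of striatum minus cortex. The calls of Ndufa5, Ndufab1 and Ndufs3 were lost without WT striatal replicate 1, with DESeq2's size factors, with no expression filter and on FPKM.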

How the results depend on the processing

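On FPKM as deposited, by limma with either pseudocount, the members called in vehicle R6/2 against WT were 15 higher and 6 lower in the striatum and 9 higher and 4 lower in the cortex. In treated R6/2 against WT they were 17 higher and 7 lower in the striatum, and 14 (pseudocount 0.1) or 15 (pseudocount 1) higher and 2 lower in the cortex. WT striatum against WT cortex gave 2 lower, and the tissue interaction 1 lower, as it did with DESeq2's size factors and with no filter. With libraries centred, 5 members were lower in the cortex in both comparisons with WT. No filter gave 6 lower in treated R6/2 cortex. Taking the tag in library names as a covariate, the cortex gave 1 higher and 18 lower in vehicle R6/2, and 1 higher and 4 lower in treated R6/2; within shared tags vehicle R6/2 had 26 lower in the cortex and 1 higher in the striatum. That setting was not run for treated R6/2 cortex, which shares no tag with WT. With both striatal libraries that stand apart left out, vehicle R6/2 had 6 higher and 31 lower, beside 28% and 26.3% of all genes. Treated R6/2 then had 8 higher and 25 lower, beside 28.3% and 26.4% of all genes. With all libraries 35 were lower. At 10 CPM for membership the interaction had 0 higher and striatal females 2 lower. On FPKM the sign turned for Cox7b in treated R6/2 striatum, to 0.0142 (pseudocount 0.1) and 0.0141 (pseudocount 1). With the tag it turned for Atp5g1 in treated R6/2 cortex, to -0.0245. The cause was not tested.

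Leaving out single libraries gave 2 to 5 higher and 23 to 35 lower in vehicle R6/2 striatum, 4 to 8 and 28 to 39 in treated R6/2 striatum, 2 to 5 and 6 to 26 in vehicle R6/2 cortex, and 3 to 10 and 5 to 17 in treated R6/2 cortex. Between tissues not every library was left out. The interaction was refitted only without WT striatal replicate 1 or treated striatal replicate 5, and had 1 to 4 lower. WT tissues were compared again only without WT striatal replicate 1, with 17 lower. By sex the ranges were 1 to 6 higher and 2 to 15 lower in striatal females, 0 to 1 and 20 to 36 in striatal males, 1 to 4 and 2 to 25 in cortical females, and 2 to 4 and 3 to 7 in cortical males.

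Replicate numbers do not pair the samples: deviations of same-numbered libraries correlated by -0.27 to 0.14 in the cortex and -0.18 to 0.12 in the striatum. With a replicate block vehicle R6/2 had 3 higher and 31 lower in the striatum and 3 higher and 10 lower in the cortex. Cox4i2, Cox6b2 and Cox6a2, at mean levels of 1.38, 1.77 and 2.37 CPM, rest on the fewest counts of the members.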
